A study of Mus musculus with 7 samples.

Results

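The cytosolic ribosomal protein genes encode the protein part of the ribosome, the particle that makes all other proteins outside mitochondria. Members were chosen by name: every gene whose mouse symbol is Rpl or Rps followed by a number, with Rplp0, Rplp1, Rplp2 and Rpsa. Pseudogene symbols, the S6 kinases and the similarly named Rps19bp1 and Rps23rg1, which are not ribosomal proteins, were left out. The rule gave 86 of the 21154 genes named on the array, read by 174 of 55681 probes. Of these genes, 76 are standard members, 45 of the large subunit and 31 of the small subunit. The other 10 are further paralogues, gene copies that differ from the standard form and mostly carry a suffix in their symbol. All 86 genes and 173 of the 174 probes passed the filter on dim probes, Rpl10l through the cΔex3 arrays alone, and all 76 standard members were well above background on all 7 arrays.

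The series concerns the dermal sheath, the mesenchymal layer around the hair follicle, and the outcome there when β-catenin, which carries Wnt signals to the nucleus, is active. RNA of sorted cells was hybridised to 1-colour Agilent arrays, which measure a fluorescent intensity per probe. The cΔex3 group, with β-catenin activation per its titles, has 4 arrays from 6 mice, with 2 mice pooled on each of arrays 2 and 3. The control group has 3 arrays from 4 mice, with 2 mice pooled on array 3. All samples are described as cells from dorsal skin at postnatal day 15 that carry the YFP reporter and lack CD34, alkaline phosphatase (ALP) and integrin α8 (ITGα8). The genotype of the control mice, and the promoter and Cre line behind the allele and the reporter, are not given in the sources used here. The number of arrays limits the precision of every value.

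A ribosome holds a single copy of nearly every ribosomal protein, so that cells make these proteins in matched amounts, and their messenger RNAs are among the most abundant in growing tissues. Many of these messenger RNAs start with a run of pyrimidines, the terminal oligopyrimidine tract, through which the mTOR pathway controls their translation. Some members have further roles. Rpl5 and Rpl11 bind Mdm2, the inhibitor of p53, when ribosome assembly fails, and mutations of several human genes of the family cause Diamond-Blackfan anaemia. A few paralogues are known from single tissues, such as Rpl10l from testis and Rpl3l from striated muscle.

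Letters of the pyrimidine tract and of known promoter motifs were counted in the start regions of the members. RefSeq promoter windows (build GRCm38.p6, 250 bases before to 50 after the annotated start) were at hand for 56 standard members and 9 paralogues. A tract of C followed by at least 4 further C or T, lying within 20 bases of the start on the coding strand, was present in 40 of the 56 (71.4%), against 44.4% of all 27025 windows. The letters CCGGAAG, a core that ETS family factors recognise, stood on either strand of 22 of the 56 (39.3%), against 9.12% of all windows. A YY1 core, AAGATGGC, was in 7.14% against 2.88%, TATAAA in 8.93% against 14.2%, and the E-box CACGTG in 8.93% against 7.24%, each on either strand. CCGGAAG read on the other strand can overlap the tract. These are matches of letters and nothing was measured at these sites. The printed windows run from 60 bases before to 20 bases after the start, in capitals where the tract or CCGGAAG stands; that of Rpl10 holds neither. Rps6 and Rps27 are shown as members with clear tracts and no called difference on the main scale (both were called higher with quantile normalisation), Rps27l and Rpl36al as paralogues called lower, Rpl10 as the standard member with the lowest difference, and Rps24 because its probes disagreed.
Rps6, chr4:86857348-86857427, minus strand: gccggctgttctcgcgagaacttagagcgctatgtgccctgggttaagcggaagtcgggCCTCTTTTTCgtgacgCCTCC
Rps27, chr3:90213629-90213708, minus strand: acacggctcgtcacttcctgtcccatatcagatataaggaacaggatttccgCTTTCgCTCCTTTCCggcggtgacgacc
Rps27l, chr9:66946026-66946105, plus strand: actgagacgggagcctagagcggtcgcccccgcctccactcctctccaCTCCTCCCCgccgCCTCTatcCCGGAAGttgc
Rpl10, chrX:74270756-74270835, plus strand: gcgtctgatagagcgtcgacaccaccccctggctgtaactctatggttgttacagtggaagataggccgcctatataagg
Rpl36al, chr12:69184048-69184127, minus strand: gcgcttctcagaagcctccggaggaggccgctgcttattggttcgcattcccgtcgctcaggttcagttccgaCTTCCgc
Rps24, chr14:24490618-24490697, plus strand: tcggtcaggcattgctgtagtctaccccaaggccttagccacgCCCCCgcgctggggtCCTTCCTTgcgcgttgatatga

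All 10 dermal sheath markers and all 10 dermal fibroblast markers were well above background on all 7 arrays. Of the dermal sheath markers 7 were called higher and 1 lower on the cΔex3 arrays, with list medians of 1.10 to 2.59 there against −0.31 to 0.27 on the control arrays. Of the dermal fibroblast markers 9 were called higher and 1 lower, with medians of 2.04 to 3.57 on the cΔex3 arrays against 0.60 to 2.16 on the control arrays. All 14 tested hepatocyte markers were called lower on the cΔex3 arrays, with list medians of −1.14 to 1.31 there against 8.88 to 9.30 on the control arrays. Of 12 adipocyte markers 11 were called higher and 1 lower, with medians of 5.77 to 7.40 on the cΔex3 arrays against −0.99 to 0.32 on the control arrays. Acvr1c, 1 of the 11, was well above background on 4 cΔex3 arrays and 0 control arrays. It passed the filter on dim probes through the cΔex3 arrays alone, so that it had to differ. Every value in these results is log2 of the processed signal relative to the array's 75th percentile unless another scale is named, and every difference is cΔex3 minus control. The 75th percentile itself was 1348 to 2160 on the cΔex3 arrays and 756 to 907 on the control arrays, and no spot was saturated. Array cΔex3 4 stood apart, with correlations of 0.917 to 0.919 over all genes with the other cΔex3 arrays, where the highest within the group was 0.972. The groups are called by their labels, and a difference between them cannot be told apart from a difference in the cells collected. The part of these cells in any result was not tested.

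Ribosomal protein genes were among the brightest probes on every array. The processed signal of the median standard member was 171239 to 240903 on the cΔex3 arrays and 95249.8 to 111185 on the control arrays, before any scaling. The median standard member lay at percentile 98.8 to 99.2 of all tested genes on the cΔex3 arrays and at percentile 97.7 to 97.8 on the control arrays. All 76 standard members had a higher median percentile in the cΔex3 group. On the relative scale the median member stood at 6.58, 7.19, 6.69 and 6.80 on cΔex3 arrays 1 to 4, and at 6.96, 7.20 and 6.77 on control arrays 1 to 3. These medians overlap between the groups: the mean was 6.81 ± 0.27 (SD, n = 4) in the cΔex3 group and 6.98 ± 0.22 (SD, n = 3) in the control group, a difference of −0.16 that is smaller than the spread between arrays. Array 2 was the highest of its group for 73 of 76 members among the cΔex3 arrays and for 76 of 76 among the control arrays. On this scale the members therefore shifted together from array to array. The order was not particular to them: the 99th percentile of all tested genes was also highest on array 2 of each group. It was 7.11 on cΔex3 array 2 and 8.20 on control array 2. The share of all genes that were highest on array 2 was not computed. All values of an array share its 75th percentile, which was lowest on array 2 of each group (1348 and 756). Before scaling the median member was at 197046 on cΔex3 array 2, below 240903 on cΔex3 array 4. Among the control arrays, array 2 was the highest before scaling too, at 111185. The part of the shared percentile in this shift was not tested.

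**Figure D1:**
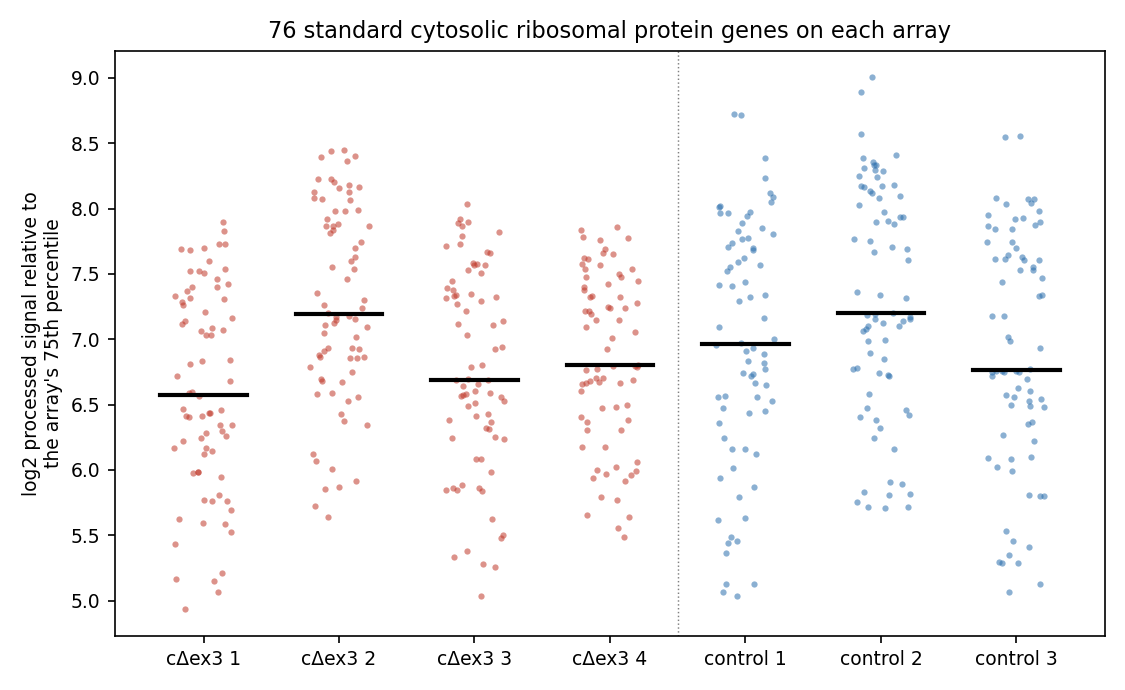
Each point is 1 of the 76 standard ribosomal protein genes, each column 1 array (cΔex3 in red, control in blue), and the vertical axis is log2 processed signal relative to the array's 75th percentile; black lines are medians. The clouds overlap between the groups, and array 2 is the highest within both, at medians of 7.19 (cΔex3) and 7.20 (control).

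This shared shift made up most of the spread within a group. The SD of a standard member between arrays had a median of 0.30 in the cΔex3 group and 0.21 in the control group. Measured relative to the median member of the same array, it had a median of 0.09 in the cΔex3 group and 0.08 in the control group. For 373 other genes of like brightness the corresponding values were 0.44 and 0.17 relative to the 75th percentile, and 0.38 and 0.18 relative to the median member. The standard members are there centred on their own median, and the other genes on the median of a set they do not belong to. The values relative to the median member are therefore no like comparison of the members with other genes. The profile over members was alike throughout: across the 76 genes, arrays correlated at 0.962 to 0.992 within the cΔex3 group, 0.979 to 0.993 within the control group and 0.930 to 0.971 between the groups. These correlations run across genes that share an array and are a description only.

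Few standard members differed between the groups on the main scale. None was called higher and 6 were called lower (limma, Benjamini-Hochberg adjusted p under 0.05 over 18032 genes), where 53.1% of all tested genes were called, 24% higher and 29% lower. In bulk samples such as these, fewer cells of a type and less RNA per cell cannot be told apart. The median standard member differed by −0.22, with 10th and 90th percentiles of −0.46 and 0.13, beside a median of −0.08 and percentiles of −1.89 and 2.55 for all tested genes. On the main scale no standard member reached a 2-fold difference, which 46.4% of all tested genes did. The 95% interval of 68 of the 76 lay wholly within 2-fold in either direction on that scale. The values of the groups did not overlap for 7 of the 76, the 6 called and Rpl10a (−0.39), all lower, where 58.7% of all tested genes did not overlap and 32.6% did so with the lower values on the cΔex3 arrays. By subunit, 3 of 45 large-subunit genes (median −0.22) and 3 of 31 small-subunit genes (median −0.19) were called lower. The median large-subunit gene stood at 6.59, 7.24, 6.70 and 6.80 on the cΔex3 arrays, against 7.10, 7.34 and 6.99 on the control arrays. The median small-subunit gene stood at 6.44, 7.16, 6.60 and 6.80 on the cΔex3 arrays, against 6.89, 7.14 and 6.75 on the control arrays. Both sets of medians overlap between the groups. With quantile normalisation 42 of the 45 and 28 of the 31 were called higher, at medians of 0.77 and 0.83. On that scale 13 of the 76 reached 2-fold, beside 45.2% of all tested genes, and 15 intervals lay wholly within it. In the authors' deposited values 14 reached it, beside 35.6% of all tested genes, and 19 intervals lay within it.

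**Figure D2:**
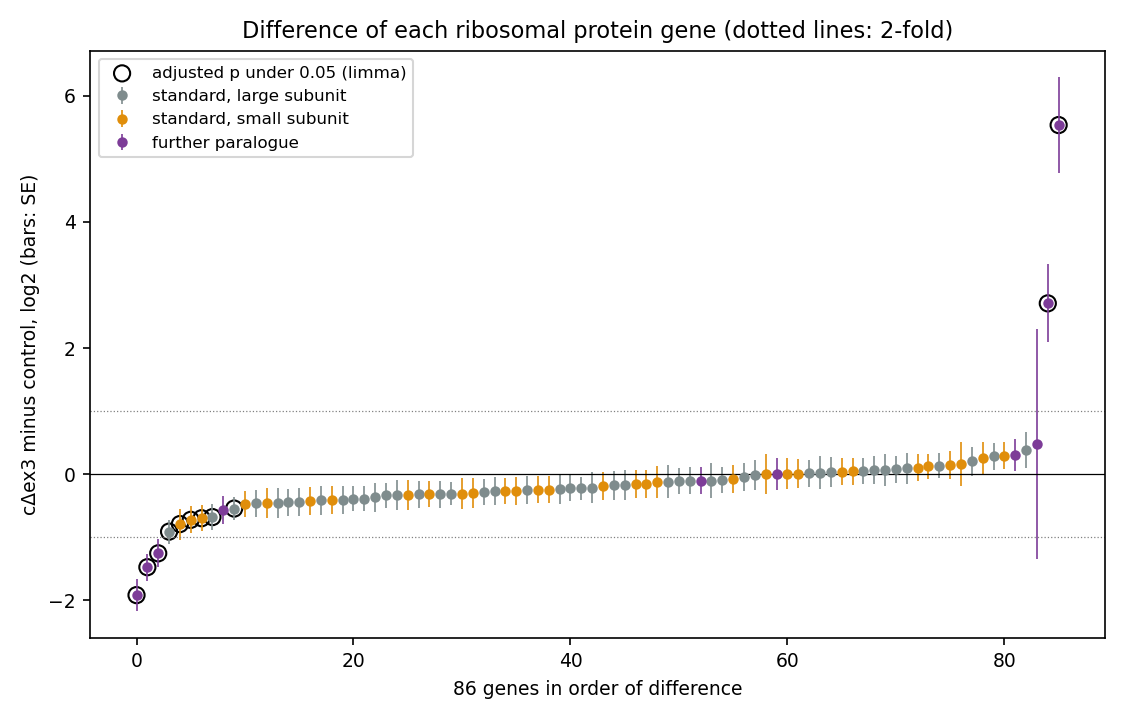
Differences, cΔex3 minus control in log2 with SE from limma, of all 86 genes in order of size; grey and orange points are standard members of the large and small subunit, purple points further paralogues, and circles mark an adjusted p under 0.05. All 76 standard members lie between −0.91 and 0.38, while the paralogues run from −1.92 (Rps27l) to 2.71 (Rpl39l); the rightmost point, Rpl10l, was not above background on any control array, so that its plotted value is not a measured difference.

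The sign of the family's difference depended on how the arrays were made comparable. With quantile normalisation, which gives every array the same distribution of values, 70 of 76 standard members were called higher and 0 lower, with a median of 0.79, where 52.6% of all genes were called, 28.3% higher and 24.2% lower. In the authors' deposited table of log2 values, 73 were called higher and 0 lower, with a median of 0.80 beside 0.11 for all genes. There 27.3% of all genes were called higher and 23.1% lower. Without any scaling 71 were called higher, with a median of 0.89 beside 1.02 for all genes. Of all genes 56.0% were then called higher and 8.91% lower. Centring each array on its median instead gave 0 higher and 16 lower, at a median of −0.44 beside −0.31 for all genes, and normexp background correction gave 0 higher and 5 lower. Of all genes, median centring called 19.9% higher and 35.8% lower, and normexp 19.2% higher and 34.9% lower. The upper part of the distribution differed between the groups: the 90th percentile of all tested genes was 3.64 to 3.96 above the 75th percentile of all probes on the cΔex3 arrays, against 4.33 to 4.45 on the control arrays. No direction is therefore given for the family as a whole, and for each standard member named in what follows the value under quantile normalisation stands beside the main one. Differences without scaling lie higher by the same amount for every gene, which turned the sign of every negative difference smaller in size than that amount.

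**Figure D3:**
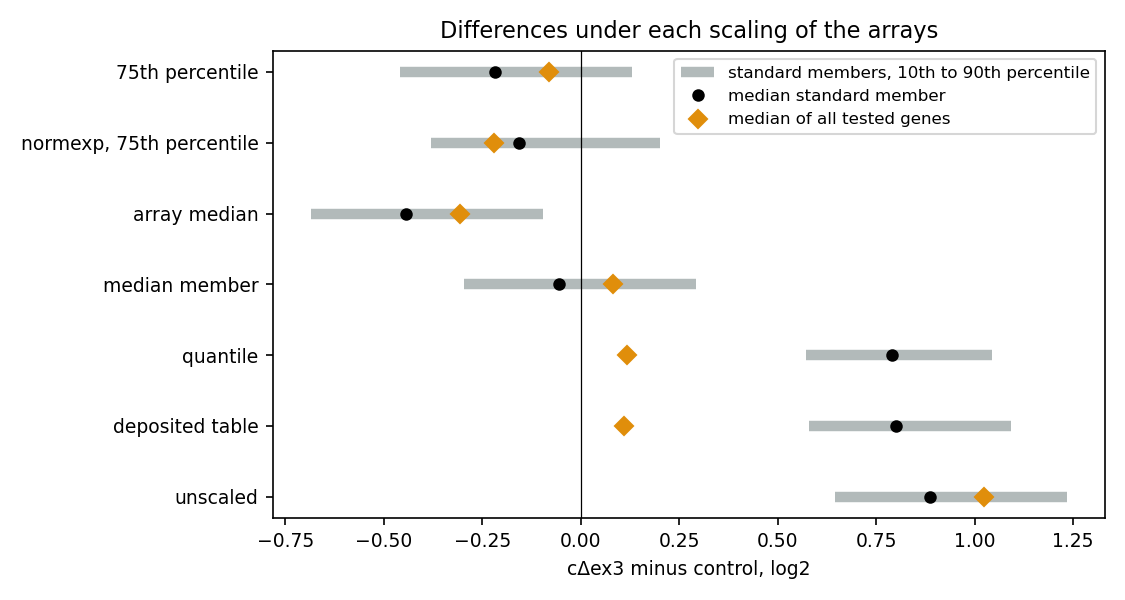
For each scaling of the arrays (vertical axis), the difference cΔex3 minus control in log2 (horizontal axis): grey bars span the 10th to 90th percentile of the 76 standard members, black points are their median and orange diamonds the median of all tested genes. The median standard member is at −0.22 relative to the 75th percentile, at 0.79 after quantile normalisation and at 0.80 in the deposited table.

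The 6 members called lower on the main scale stood out from the rest of the family by less than 2-fold, and none of them was lower after quantile normalisation. Rpl10, a large-subunit protein added late in assembly, was at 7.70, 8.13, 7.79 and 7.78 on the cΔex3 arrays, against 8.71, 9.0 and 8.56 on the control arrays. Every cΔex3 array was below every control array. The difference was −0.91 ± 0.19 (SE; limma, adjusted p = 0.00633), and all 3 of its probes were called lower. Within row 1 of the slide (cΔex3 array 1 against control arrays 1 and 2) the difference was −1.16. Within row 2 (cΔex3 arrays 2 to 4 against control array 3) it was −0.66. With quantile normalisation the difference over all arrays was 0.28 (limma, adjusted p = 0.179). Relative to the median member of the array, Rpl10 differed by −0.75 (adjusted p = 0.0167). That scale gave 2 lower calls in the family, Rpl10 and Rps2, where 43.6% of all genes were called and 20.7% called lower.

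Rps2, a small-subunit protein near the messenger RNA entrance, had 5.59, 6.34, 5.98 and 6.18 on the cΔex3 arrays, against 6.78, 7.14 and 6.53 on the control arrays, which did not overlap. It differed by −0.79 ± 0.25 (SE; limma, adjusted p = 0.0312), and by 0.12 with quantile normalisation. The other of its 2 probes differed by −0.35 and was not called (limma over probes, adjusted p = 0.282). Within slide row 1 the difference was −1.37 and within row 2 −0.36. Rpsa, the small-subunit protein also known as the laminin receptor precursor, had 7.33, 7.86, 7.38 and 7.24 on the cΔex3 arrays, against 8.24, 8.36 and 7.93 on the control arrays. It differed by −0.72 ± 0.21 (SE; limma, adjusted p = 0.0261), and by 0.37 with quantile normalisation. Of its 4 probes 2 were called lower, and the other 2 differed by −0.29 and −0.25.

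Rps14, a small-subunit protein whose human gene lies in the segment lost in the 5q- syndrome, had 7.90, 8.44, 7.89 and 7.86 on the cΔex3 arrays, against 8.72, 8.89 and 8.54 on the control arrays. Its difference was −0.70 ± 0.21 (SE; limma, adjusted p = 0.0261), and it was 0.58 and called higher with quantile normalisation (adjusted p = 0.0171). For Rpl7a, a large-subunit protein, the difference was −0.68 ± 0.21 (adjusted p = 0.0297), and 0.31 with quantile normalisation; 1 of its 4 probes was called lower. Rpl4, which reaches into the exit tunnel of the large subunit, differed by −0.54 ± 0.18 (adjusted p = 0.0419), and by 0.39 with quantile normalisation. The groups overlapped for none of these 3 genes on the main scale. Both rows of the slide hold arrays of both groups, but row 1 has only 1 cΔex3 array and row 2 only 1 control array. Within each row all 6 genes were lower on the cΔex3 side, with differences of −1.37 to −0.82 in row 1 and of −0.66 to −0.31 in row 2. Each of these differences thus rests on 1 array of 1 group.

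These counts depended on single arrays. Without any one of cΔex3 array 1, cΔex3 array 3, control array 1 and control array 2, only Rpl10 of the 76 stayed past the threshold, and without cΔex3 array 2 there were 14 lower calls. Of all tested genes 22.2% to 26.5% were called lower in the fits that kept only Rpl10, and 27.8% without cΔex3 array 2. With the row of the slide as a block only Rpl10 was called lower, where 24.2% of all tested genes were. Rpl10 was called lower in 19 of 22 other settings, and not with quantile normalisation, in the deposited table or without scaling.

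Neither Rpl5 nor Rpl11 passed the threshold on the main scale, and both were called higher with quantile normalisation. Rpl5, which with Rpl11 carries the 5S ribosomal RNA into the ribosome, was at 5.16, 5.86, 5.25 and 5.64 on the cΔex3 arrays, against 5.37, 5.81 and 5.30 on the control arrays. The ranges overlap, and the difference was −0.02, with a 95% interval of −0.58 to 0.55. Rpl11 differed by −0.37 (interval −0.90 to 0.16). After quantile normalisation Rpl5 differed by 0.84 and Rpl11 by 0.70. The genes most often mutated in Diamond-Blackfan anaemia include Rps19, at 0.30 (−0.21 to 0.80), and Rps26, at 0.00 (−0.74 to 0.74), with 1.16 and 0.96 after quantile normalisation. Rps26 was at 7.33 on cΔex3 array 4 against 6.15 to 6.86 on the other cΔex3 arrays, so that its interval is among the widest of the standard members. The other smallest differences were those of Rps3a1 at 0.01 and Rps21 at 0.01, both small-subunit proteins, with 0.86 and 0.91 after quantile normalisation.

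The acidic stalk of the large subunit, which recruits elongation factors, is made of Rplp0, Rplp1 and Rplp2. Rplp0 differed by −0.23, Rplp1 by −0.11 and Rplp2 by 0.07, none past the threshold, and by 0.87, 0.84 and 1.29 with quantile normalisation, where 1.29 was the highest value of the standard members. Rps6, the target of S6 kinases, differed by −0.30 (−0.86 to 0.26) and by 0.63 with quantile normalisation. Rps27a, which is made as a fusion with ubiquitin, differed by −0.45 (−1.01 to 0.10), and Rps20, a small-subunit protein, by −0.19; quantile normalisation gave 0.62 and 1.03. Rps4x, encoded on the X chromosome, differed by 0.13 and by 0.98 with quantile normalisation. These members thus did not pass the threshold on the main scale, while quantile normalisation called each of them higher.

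The next members, some with a known role in development or growth, did not pass the threshold on the main scale. Rpl38, whose loss in the tail short mouse causes skeletal patterning defects, differed by −0.33, Rpl24, altered in the belly spot and tail mouse, by −0.41, and Rpl29, whose loss gives small mice, by −0.28. Quantile normalisation gave 0.69 for Rpl38, 0.62 for Rpl24 and 0.72 for Rpl29. Rpl13a, known in human cells for a second role in silencing inflammatory messenger RNAs, differed by −0.32, Rpl32, often used to scale expression assays, by −0.38 and Rpl37a, a large-subunit protein, by −0.45. With quantile normalisation these were 0.63, 0.69 and 0.75. Rpl22, an RNA-binding large-subunit protein, differed by −0.21 and by 0.71. Rpl3, at the peptidyl transferase centre, had the highest difference of the standard members, 0.38 (−0.29 to 1.05), which did not pass the threshold, and 1.23 with quantile normalisation, which did.

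Several probes read 51 of the standard members. For these the difference between the highest and lowest probe had a median of 0.26, and it was under 0.5 for 43. Over all 162 tested probes of standard members, 2 were called higher and 15 lower, where 50% of all 42460 tested probes were called and 31.4% called lower. Of the 15, 7 were among the 22 probes with a mean below 4 and 8 among the 140 brighter ones. The dimmer probes had a median of −0.30 and the brighter ones of −0.17. A dim probe of Rpl13a, for example, was at 1.42, 2.15, 1.75 and 1.52 on the cΔex3 arrays, against 2.72, 3.01 and 2.77 on the control arrays. It differed by −1.12 (limma over probes, adjusted p = 0.00506), whereas the brightest probe of the same gene differed by −0.32. The mouse genome holds many near-identical copies of these genes, and the probe sequences are not used here, so that the copy read by a probe cannot be told apart from its parent gene.

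Rps24 was the one standard member called for unequal change among its probes by a gene-level test on the main scale. For Rpl13a the test of single probes against the others of the gene gave 0.78 for the brightest (limma, adjusted p = 0.0485), without a call for the gene. Both tests treat probes of the same array as independent, so that their p-values can be too small. The product of Rps24 is a small-subunit protein, and its messenger RNA is known to be spliced at its 3′ end into forms whose shares differ between tissues. The probe for transcript NM_011297 was at 7.29, 7.97, 7.53 and 6.55 on the cΔex3 arrays, against 4.91, 5.11 and 4.94 on the control arrays. Every cΔex3 array was above every control array, and array 4 was the lowest of its group. The difference was 2.35 ± 0.33 (SE; limma over probes, adjusted p = 0.00118). The probe for NM_207635 had 7.52, 7.98, 7.57 and 7.33 on the cΔex3 arrays, against 8.05, 8.25 and 7.90 on the control arrays, a difference of −0.47 ± 0.21 (adjusted p = 0.102). The probe for NM_207634 had 5.80, 6.41, 5.97 and 5.84 on the cΔex3 arrays, against 6.03, 6.36 and 6.02 on the control arrays, a difference of −0.13 ± 0.21 (adjusted p = 0.629).

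**Figure D4:**
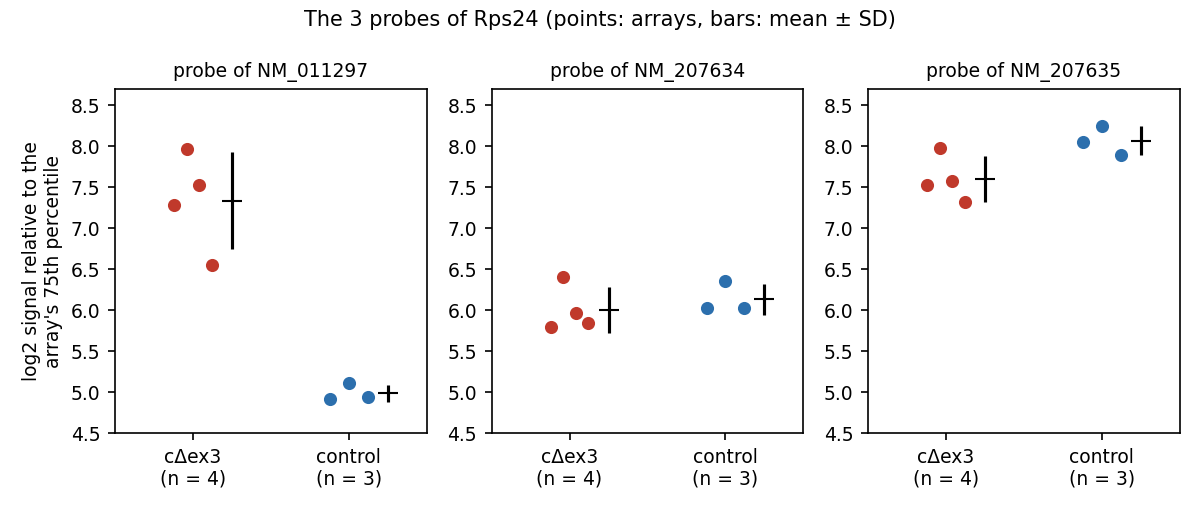
The 3 probes of Rps24, with log2 signal relative to the array's 75th percentile on the vertical axis, 1 point per array (cΔex3 in red, control in blue) and the mean ± SD beside them. The probe of NM_011297 separates the groups (6.55 to 7.97 on the cΔex3 arrays, 4.91 to 5.11 on the control arrays), while the probe of NM_207634 overlaps.

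A test for unequal change among the probes of 1 gene (limma diffSplice, chosen after the values had been seen) gave an adjusted p of 2.9e-05 for Rps24, where 18% of 4744 genes with several probes were called. The test treats the probes of a gene as independent although they share the same arrays, so that its p-values can be too small. Of the 52 ribosomal protein genes in that test, 2 were called, Rps24 and Rpl10l. There were 15 with quantile normalisation, where 934 of all 4744 genes were called. In the deposited values there were 16, where 1102 of the 4744 were called. The call of Rpl10l rests on a probe that passed the filter through the cΔex3 arrays alone. Its control values were not above background, so that this call is no support for unequal change. Relative to its other probes, the NM_011297 probe changed by 2.65, and by 2.49 to 2.84 over the 11 other settings run, with adjusted p from 1.6e-06 to 0.00121. This comparison is made within each array and so hardly depends on how the arrays were scaled. On each array the log2 ratio of the NM_011297 probe to the NM_207635 probe was −0.23, −0.01, −0.04 and −0.77 in the cΔex3 group, against −3.14, −3.14 and −2.96 in the control group. The ratios differed by 2.82 (exact permutation test, two-sided p = 0.0571, the smallest that 4 against 3 arrays can give). Which exon each probe reads is not given in the sources used here.

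Apart from Rpl10l, for which only a bound can be given, the paralogues had differences from −1.92 (Rps27l) to 2.71 (Rpl39l), where the standard members had −0.91 to 0.38. Of the 10, 2 were called higher and 3 lower on the main scale (5 higher and 2 lower with quantile normalisation), and 5 differed by at least 2-fold. These shares are near those of all tested genes, of which 53.1% were called and 46.4% reached 2-fold, and Rpl10l, 1 of those called higher, passed the filter through the cΔex3 arrays alone. The log2 ratio of a paralogue to its counterpart on the same array does not change when all values of an array are scaled by one factor; quantile normalisation can change it. For 7 of 9 such pairs the ratio did not overlap between the groups, and the exact permutation test gave the smallest p it can (0.0571, and 0.0735 adjusted over the 9 pairs). The ratio of Rpl10l to Rpl10, 1 of the 7, rests on control values of Rpl10l that were not above background. Of all tested genes 58.7% did not overlap on the main scale; the corresponding share for ratios of other gene pairs was not computed. The pairs with overlap were Rpl3l with Rpl3 and Rps4l with Rps4x.

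Rps27l had the lowest difference of the family. It encodes a near copy of Rps27 and is known as a target gene of p53. Its probe was at 4.88, 5.87, 5.45 and 5.16 on the cΔex3 arrays, against 7.37, 7.19 and 7.21 on the control arrays, without overlap. The difference was −1.92 ± 0.25 (SE; limma, adjusted p = 0.00093) and −1.03 with quantile normalisation (adjusted p = 0.00382), and it was called lower in 22 of 22 other settings. Within slide row 1 it differed by −2.40 and within row 2 by −1.72. The log2 ratio to Rps27 was −2.58, −2.28, −2.05 and −2.41 on the cΔex3 arrays, against −0.40, −0.84 and −0.49 on the control arrays. Rps27 differed by −0.16 (0.93 with quantile normalisation), and the ratio of Rps27l to Rps27 by −1.76 (−1.96 with quantile normalisation). In a list of 14 p53 pathway genes, 3 were called higher (Phlda3 by 3.32, Sesn1 by 1.16 and Mdm4 by 0.96) and 2 lower (Bbc3 at −1.03 and Bax at −1.13), and 3 higher and 1 lower with quantile normalisation. Phlda3 was at −0.26 on control array 2, against 3.53 and 3.16 on the other control arrays, and differed by 2.12 without it. Phlda3 missed the threshold in 5 of 22 other settings and Mdm4 in 7. Of all tested genes 24% were called higher and 29% lower, so that the share higher in this list is near that of all genes and the share lower is below it.

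Rpl7l1, a paralogue of Rpl7 found in human large-subunit precursors, was at −1.94, −1.35, −1.72 and −2.10 on the cΔex3 arrays, against −0.23, −0.25 and −0.43 on the control arrays. It differed by −1.47 ± 0.22 (SE; limma, adjusted p = 0.00144), by −1.52 with quantile normalisation, and its ratio to Rpl7 by −1.03 (−2.09 with quantile normalisation). Rpl36al, a retrotransposed copy of Rpl36a, was at 4.84, 5.62, 5.18 and 5.44 on the cΔex3 arrays, against 6.57, 6.60 and 6.41 on the control arrays. Its difference of −1.25 ± 0.22 (adjusted p = 0.00315) was −0.38 and not past the threshold with quantile normalisation (adjusted p = 0.138). The log2 ratio of Rpl36al to Rpl36a was −0.93, −1.05, −0.67 and −0.50 on the cΔex3 arrays, against 0.56, 0.18 and 0.32 on the control arrays. The groups did not overlap, and the difference was −1.14 on both scales.

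Both paralogues called higher are known from male germ cells. Rpl39l was at −1.78, −2.32, −3.55 and −0.66 on the cΔex3 arrays, against −4.79, −4.89 and −4.67 on the control arrays. Every cΔex3 array was above every control array, array 4 the most, and by slide row the difference was 3.06 and 2.50. Over all arrays it was 2.71 ± 0.62 (SE; limma, adjusted p = 0.00922) and 2.75 with quantile normalisation, and Rpl39 itself differed by 0.06 and 0.98. Rpl39l was called higher in 21 of 22 other settings and missed the threshold with normexp (limma, adjusted p = 0.0607). Its differences over these settings ran from 1.35 to 3.81. On the control arrays its processed signal was only 25.6 to 35.6, though well above background on all 3. Rpl10l was read by 2 probes that disagreed. The brighter was at −1.32, −4.09, −2.74 and −0.83 on the cΔex3 arrays, well above background on all 4, and at −8.04, −7.55 and −7.75 on the control arrays, well above background on none. Its level was at least 13.7-fold higher in the cΔex3 group, a bound set by the lowest signal above background on each control array. It passed the filter through the cΔex3 arrays alone, so that it had to differ. The other probe was above background on 2 of 4 and 2 of 3 arrays and differed by −0.04 (adjusted p = 0.97). A list of male germ cell markers moved in the same direction: 5 of 8 tested were called higher and 0 lower. Of all tested genes 24% were called higher and 29% lower. The list medians were −1.11, −0.44, −0.97 and 2.11 on cΔex3 arrays 1 to 4, against −4.32 to −3.95 on the control arrays. Among these markers Tnp2, a transition protein gene, was well above background on 4 of 4 cΔex3 arrays and 0 of 3 control arrays. Tnp2 thus passed the filter through the cΔex3 arrays alone, as Rpl10l did. Their part in the values of Rpl39l and Rpl10l was not tested.

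Rpl3l was bright on 1 array. It was at −6.00, −6.29, −6.03 and 0.76 on the cΔex3 arrays, against −3.39, −6.26 and −4.95 on the control arrays, above background on 2 of 4 and 2 of 3. The group difference of 0.48 (adjusted p = 0.84) had an interval of −3.82 to 4.78. Striated muscle markers had medians of −4.57, −4.05, −4.25 and −1.35 on cΔex3 arrays 1 to 4 and of 1.55, −4.05 and −4.45 on control arrays 1 to 3, so that the arrays highest in Rpl3l within each group were also the highest in that list. The part of muscle transcripts in the Rpl3l values was not tested. Without cΔex3 array 4 the difference was −1.24, still not past the threshold.

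The remaining paralogues were not called on the main scale. Rpl22l1, which with Rpl22 regulates splicing in zebrafish, differed by 0.01 (−0.59 to 0.60), Rpl32l by −0.10, Rps4l by 0.31 and Rpl37rt by −0.56 (adjusted p = 0.0652). With quantile normalisation they differed by 0.82, 0.84, 0.69 and 0.56. The ratio of Rpl22l1 to Rpl22 was −1.53, −1.44, −1.40 and −1.31 on the cΔex3 arrays, against −1.74, −1.62 and −1.54 on the control arrays, which did not overlap and differed by 0.22. The difference in this ratio was 0.10 with quantile normalisation, 0.05 with the mean of each gene's probes and −0.12 with the lowest probe.

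**Figure D5:**
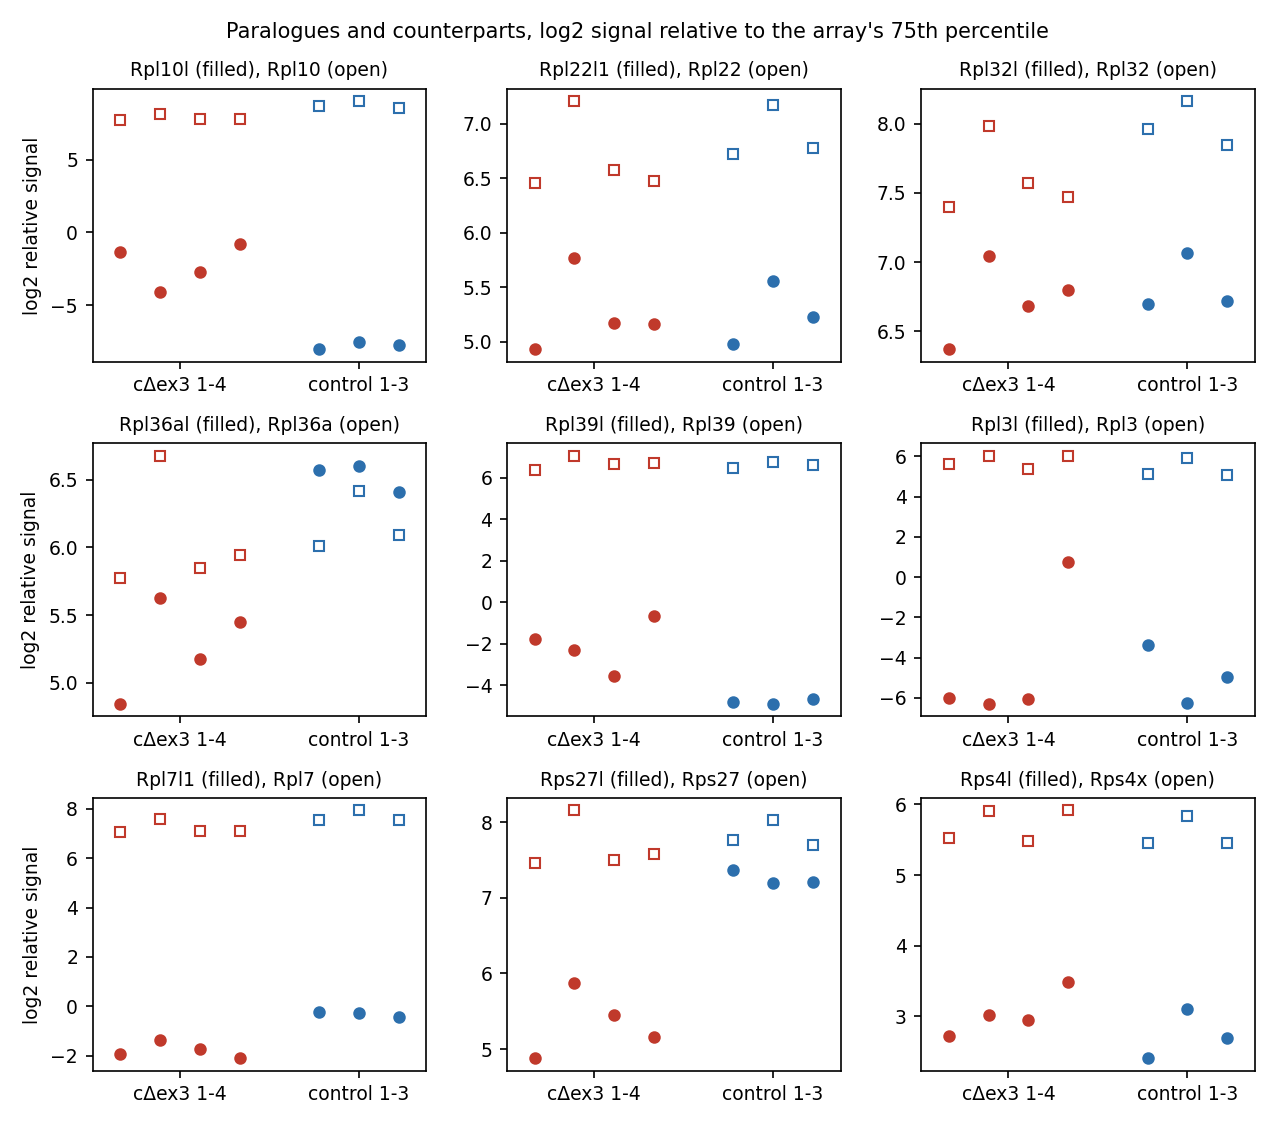
Each panel is 1 pair and shows a paralogue (filled circles) and its counterpart (open squares) on each array, cΔex3 arrays 1 to 4 in red and control arrays 1 to 3 in blue; the vertical axis, which differs between panels, is log2 signal relative to the array's 75th percentile. Rps27l, Rpl7l1 and Rpl36al are lower and Rpl10l and Rpl39l higher on every cΔex3 array, and Rpl3l is bright on cΔex3 array 4 alone.

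Outside the naming rule, 2 further genes of ribosomal or ribosome-bound proteins were looked at, and neither was called on the main scale. Fau, which encodes a ubiquitin-like protein fused to Rps30, was at 7.77, 8.45, 7.96 and 8.01 on the cΔex3 arrays, against 8.25, 8.62 and 8.22 on the control arrays. The groups overlap, and the difference was −0.32 (limma, adjusted p = 0.255). Rack1, the signalling scaffold of the small subunit, differed by −0.48 (adjusted p = 0.0874). Both changed sign and were called higher with quantile normalisation, at 0.93 for Fau and 0.58 for Rack1.

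The counts of the lists that follow stand beside those of all tested genes, of which 24% were called higher and 29% lower (28.3% and 24.2% with quantile normalisation). Mitochondrial ribosomal protein genes make the separate ribosome inside mitochondria. Of 77 tested, 1 was called higher and 45 lower, with a median of −0.75, and 5 were called higher and 23 lower with quantile normalisation, where the median was −0.25. Mrps2 differed by −1.43, Mrpl1 by −1.37 and Mrpl16 by −1.55 (limma, adjusted p from 0.00041 to 0.000761). With quantile normalisation these were −1.33, −1.31 and −1.01. Mrps6, of the small mitochondrial subunit, was the 1 called higher, at 4.70, 5.49, 5.53 and 5.13 on the cΔex3 arrays, against 2.96, 3.01 and 3.20 on the control arrays. It was higher by 2.15 ± 0.24 (SE; limma, adjusted p = 0.000439) and by 2.72 with quantile normalisation.

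Among 64 tested factors of ribosome assembly, 3 were called higher and 22 lower, with a median of −0.43 (3 higher and 13 lower with quantile normalisation, median −0.13). The share called lower is near that of all genes on both scales, and the share called higher is below it. Rcl1, needed for 18S ribosomal RNA maturation, was at 0.47, 0.71, 0.81 and −0.20 on the cΔex3 arrays, against 3.71, 3.97 and 3.50 on the control arrays. Its difference was −3.28 ± 0.28 (SE; limma, adjusted p = 0.000143), and −2.99 with quantile normalisation. Bccip (−1.34), Heatr1 (−1.16) and Mrto4 (−1.14), all of which act in subunit assembly, were called lower on both scales. Eif6, which keeps the subunits apart, was called lower on the main scale (−0.84) and missed the threshold with quantile normalisation (−0.43, adjusted p = 0.0511). Npm1, the nucleolar chaperone nucleophosmin, differed by −0.47, not past the threshold, and by 0.41 with quantile normalisation.

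For ribosomal RNA synthesis, 4 of 16 tested genes were called higher and 4 lower, with a median of 0.05 (5 and 4 with quantile normalisation), shares near those of all genes. Ubtf, the upstream binding factor of RNA polymerase I, was at 6.42, 7.29, 6.87 and 5.83 on the cΔex3 arrays, against 8.99, 9.04 and 8.28 on the control arrays. It differed by −2.17 ± 0.38 (SE; limma, adjusted p = 0.00313) and by −1.09 with quantile normalisation, but the lowest of its probes differed by 0.09, so that the call holds for the brightest probe. Of the subunits of the SL1 selectivity factor, Taf1b was higher by 1.68 and Taf1c by 1.06, and Taf1a differed by −0.99, all past the threshold on both scales.

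Of 37 initiation factors, 0 were called higher and 11 lower (median −0.34), against 9 higher and 3 lower with quantile normalisation (median 0.27). The share called lower on the main scale is near that of all genes. Among those called lower on the main scale, Eif2b4 (−1.06) and Eif3j1 (−1.0) kept the sign with quantile normalisation, at −0.49 and −0.70, whereas Eif3m (−0.66) and Eif5 (−0.63) did not, at 0.08 and 0.20. Of 20 elongation and release genes, 2 were called higher and 6 lower (median −0.50), against 9 higher and 3 lower with quantile normalisation (median 0.25); the share lower on the main scale is again near that of all genes. Eef1a1, the main elongation factor, was called lower at −0.87 (adjusted p = 0.00764) and was 0.19 with quantile normalisation, and Tpt1, a growth-related gene with a pyrimidine tract, was −0.57 and 0.71. Eef2, which moves the ribosome along, differed by −0.38 and by 0.50. Gspt2, a paralogue of release factor eRF3, was higher by 4.29 (adjusted p = 0.0019), and Eef2k, the kinase that inhibits Eef2, by 2.67 (adjusted p = 0.000558).

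Among 22 genes that regulate translation of pyrimidine-tract messenger RNAs or the S6 kinase pathway, 7 were called higher and 5 lower, with a median of −0.04, not far from the shares of all genes. Ddit4, an inhibitor of mTOR complex 1, was higher by 1.73, Sesn1, another inhibitor, by 1.16 and Rps6ka3, an S6 kinase of the RSK family, by 2.98. Eif4ebp2 (−1.45) and Eif4ebp3 (−2.02), which repress cap-dependent initiation, were called lower. Each of these 5 kept its direction and its call with quantile normalisation. Of 16 tested transcription factors with a known part in ribosomal protein or Myc-family regulation, 3 were called higher and 4 lower. Myc itself differed by −0.16 (adjusted p = 0.709). Mlx (−1.66), Mnt (−0.65) and Mlxipl (−2.26), a carbohydrate-sensing factor abundant in liver, were called lower, and Mxd1 was higher by 1.26; the dimmest probes of Mlxipl and Mxd1 gave 0.03 and −0.26. Hepatocyte and adipocyte markers differ between the same groups as given above, and their part in the values of these lists was not tested.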

How the data were processed

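Per the file headers, the authors read the arrays with Agilent Feature Extraction 10.7.1.1 as 1 slide; the deposited processed signal is a background-subtracted intensity, not scaled between arrays. Raw spot and background intensity served normexp, and other values deposited for each spot, marks of 0 or 1, told which spots were saturated, non-uniform or above background. The authors' deposited series table holds log2 values with medians near 7.41, as quantile normalisation gives; how it was made is not given in the sources used here.

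Per the labels, 10 ng of RNA with an integrity number of about 8 was amplified and labelled with 1 dye. Here, outlier and control spots were left out, spots of a probe were averaged, and probes were named through RefSeq. Of 55681 probes, 42460 passed the filter (well above background on 3 or more arrays of 7) and were tested, with the probe of the highest mean for each of 18032 genes. limma 3.58.1 (R 4.3.3; lmFit, eBayes, two-sided) compared the groups on log2 signal minus the 75th percentile, adjusted over all genes, threshold 0.05. Headers and names of the scanner files gave different slide numbers for 7 arrays and different positions for 4; the header's were used. The labels call the samples biological replicates. The steps were tested on simulated data. Named genes are those with the 10 largest called differences each way, the 5 smallest, the 3 brightest and 3 dimmest, all paralogues, a list of members with known roles, and up to 4 of each list with the smallest p; Rps24, Rpl3, Rpl10a, Bax and the paralogues' counterparts were added after their values were seen. A gene that the rule also names is not reported here. Members and lists were chosen with earlier results of these data known. The alternatives were another background correction, 5 other scalings or value sources, filters, probe rules, slide row, replicate number, pooled mice, weights, and leaving out each array.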

Additional observations from a re-analysis of the deposited data

Results flagged for a closer look

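In groups of 4 arrays, a value was singled out when its gap to the nearest of the others exceeded Dixon's critical share of the group's range, which chance gives in about 5% of groups. The 76 genes checked were the named genes, not the 76 standard members, and 10 had such a value on a cΔex3 array. Genes of the same array are not independent and several named genes were picked by their values. The 5% is therefore no measure for this count. Array cΔex3 2 was high for 7 of them. Among these, Rpl22 was at 7.20 (the other cΔex3 arrays at 6.46 to 6.57), Rpl7a at 7.35 (6.72 to 6.81), Rps14 at 8.44 (7.86 to 7.90), Rps27a at 8.08 (7.31 to 7.40) and Rack1 at 7.97 (7.35 to 7.42). Tpt1 was at 8.5 (7.96 to 8.03) and Eif6 at 2.89 (2.56 to 2.58). The same array was the highest of its group for 73 of 76 standard members.

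Array cΔex3 4 stood apart for the other 3 genes. Rpl3l was high at 0.76 (−6.29 to −6.00 on the other cΔex3 arrays), and without that array its difference between the groups was −1.24. Bbc3 was low at −0.14 (0.71 to 0.84) and Sesn1 low at 2.32 (2.70 to 2.77).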

How the results depend on the processing

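Counts on the main scale were 0 standard members higher and 6 lower, 2 paralogues higher and 3 lower, 22 list genes higher and 99 lower, and 2 probes of standard members higher and 15 lower; the median standard member lay 0.14 below the median of all genes. The array scaling moved them most. With quantile normalisation the counts were 70 and 0 for standard members, 5 higher for paralogues, 46 and 53 for lists and 126 and 7 for probes, and the median lay 0.67 above that of all genes. The deposited table gave 73 and 0, 5, 50 and 59, 129 and 5, and 0.69. Without scaling they were 71 and 0 for standard members, 6 and 1 for paralogues, 138 and 8 for lists, 142 and 0 for probes, and 10089 and 1606 for all genes (4335 and 5237 on the main scale). Median centring gave 16 standard members lower, 14 list genes higher, and 1 probe higher and 35 lower. Centring on the family gave 2 standard members and 55 list genes lower. Slide row as a block gave 1 standard member lower, and 1 probe higher and 8 lower. Arrays of 1 mouse gave 8 list genes higher, and 1 probe higher and 8 lower. Paralogues called higher numbered 1 with normexp, with the lowest probe and with signal on all 7 arrays, and probes called higher numbered 1 with normexp and without a filter. Why these values moved was not tested.

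Leaving out each array in turn gave 1 to 14 standard members lower, 7 to 29 probes lower and 1 to 2 higher, and 14 to 23 list genes higher and 62 to 108 lower. Of all genes, 3244 to 4922 were called higher and 3996 to 5569 lower. Genes near 0 changed sign over these fits: Myc ranged from −0.39 to 0.086, the second Rpl10l probe ranged from −0.47 to 0.60, Rpl22l1 ranged from −0.16 to 0.16, Rpl32l ranged from −0.21 to 0.018, Rpl3l ranged from −1.24 to 1.22, Rpl5 ranged from −0.14 to 0.14, Rplp1 ranged from −0.22 to 0.041, Rplp2 ranged from −0.074 to 0.16, Rps21 ranged from −0.15 to 0.14, Rps26 ranged from −0.21 to 0.18 and Rps3a1 ranged from −0.12 to 0.19.

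Arrays with the same number in both groups did not deviate together (correlations of −0.0089 to 0.018), so that the numbers do not pair them. The replicate block, in which cΔex3 array 4 has no partner, gave 5 standard members lower and 1 probe higher, and Myc 0.086, Rpl3l −1.24, Rps26 −0.21 and Rps3a1 −0.069; it is no measure of a weaker effect.

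Values that changed sign elsewhere follow by setting. Array weights gave Rpl3l −1.44, Rps26 −0.096 and Rps3a1 −0.014. Arrays of 1 mouse gave Rpl22l1 −0.22, Rplp2 −0.25, Rps21 −0.24, Rps26 −0.043, Rps3a1 −0.17 and the second Rpl10l probe 0.74. Centring on the family gave Myc 0.0012, Rpl32l 0.060, Rpl5 0.15, Rplp1 0.057, the Rps24 probe of NM_207634 0.030 and the second Rpl10l probe 0.12. The lowest probe of each gene gave Mlxipl 0.034, Mxd1 −0.26, Npm1 0.18, Rpl10l −0.040, Rpl22 0.13, Rpl29 0.068 and Ubtf 0.091. Median centring gave Rpl22l1 −0.22, Rplp2 −0.16, Rps21 −0.22, Rps26 −0.23, Rps3a1 −0.22 and Rps4x −0.10. Normexp gave Rpl5 0.018. Slide row as a block gave Myc 0.11, Rpl22l1 −0.083, Rps21 −0.018, Rps26 −0.10, Rps3a1 −0.015 and the second Rpl10l probe 0.36. Quantile normalisation gave Eef1a1 0.19, Eef2 0.50, Eif3m 0.083, Eif5 0.20, Fau 0.93, Npm1 0.41, Pabpc1 0.69, Rack1 0.58, Rpl10 0.28, Rpl11 0.70, Rpl13a 0.63, Rpl22 0.71, Rpl24 0.62 and Rpl29 0.72. These were followed by Rpl32 0.69, Rpl32l 0.84, Rpl37a 0.75, Rpl37rt 0.56, Rpl38 0.69, Rpl4 0.39, Rpl5 0.84, Rpl7a 0.31, Rplp0 0.87, Rplp1 0.84, Rps14 0.58, Rps2 0.12, Rps20 1.03 and Rps27a 0.62. Further values there were Rps6 0.63, Rpsa 0.37, Tpt1 0.71, the Rps24 probe of NM_207634 0.75 and the second Rpl10l probe 0.064. The deposited table gave Eef1a1 0.22, Eef2 0.63, Eif3m 0.19, Eif5 0.19, Fau 0.88, Npm1 0.44, Pabpc1 0.79, Rack1 0.55, Rpl10 0.22, Rpl11 0.65, Rpl13a 0.59, Rpl22 0.60, Rpl24 0.63 and Rpl29 0.77. These were followed by Rpl32 0.80, Rpl32l 0.81, Rpl37a 0.79, Rpl37rt 0.70, Rpl38 0.63, Rpl4 0.54, Rpl5 0.80, Rpl7a 0.24, Rplp0 1.07, Rplp1 0.83, Rps14 0.72, Rps2 0.063, Rps20 0.97 and Rps27a 0.59. Further values there were Rps6 0.67, Rpsa 0.40, Tpt1 0.67, the Rps24 probe of NM_207634 0.74 and the second Rpl10l probe 0.13. Unscaled values were Bbc3 0.075, Eef1a1 0.24, Eef2 0.72, Eif2b4 0.043, Eif3j1 0.10, Eif3m 0.44, Eif5 0.47, Eif6 0.26, Fau 0.79, Mnt 0.45, Myc 0.94, Npm1 0.63, Pabpc1 0.90 and Rack1 0.62. These were followed by Rpl10 0.19, Rpl11 0.73, Rpl13a 0.79, Rpl22 0.89, Rpl24 0.70, Rpl29 0.82, Rpl32 0.72, Rpl32l 1.0, Rpl37a 0.65, Rpl37rt 0.54, Rpl38 0.77, Rpl4 0.56, Rpl5 1.09 and Rpl7a 0.42. Further values there were Rplp0 0.87, Rplp1 1.0, Rps14 0.41, Rps2 0.31, Rps20 0.92, Rps27a 0.65, Rps6 0.80, Rpsa 0.38, Taf1a 0.11, Tpt1 0.53, the Rps24 probe of NM_207634 0.97 and the second Rpl10l probe 1.06. Among 52 ribosomal protein genes with several probes, the call of Rps24 was kept in all 11 other settings run for that test.

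Signal limits some values: Rpl10l, Rpl3l and the second Rpl10l probe were near background on several arrays, while the standard members were bright and none of their spots was saturated. Rpl39l had a low processed signal of 25.6 to 35.6 on the control arrays. The 4 against 3 arrays cannot give an exact permutation p below 0.0571.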
